A study of Homo sapiens with 12 samples.

Results

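The genes described here were 10 components of the circadian clock: ARNTL, CLOCK, NPAS2, PER1, PER2, PER3, CRY1, CRY2, NR1D2 and BHLHE40. They were chosen by gene name, and the choice was made with values of these peak lists in view, namely which lists held a peak and the position, length and enrichment rank of each peak. Those values are therefore given as a description, with no test. Of the 10 genes, 9 had at least 1 m6A peak in at least 1 list, among 7623 genes with a peak in all, and CRY1 had none. Together they carried 51 of the 50501 peaks in the 6 lists.

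MeRIP-seq recovers RNA fragments with an antibody against N6-methyladenosine (m6A), and a peak is a stretch where the immunoprecipitated (IP) library exceeds its input. K1, an established papillary thyroid cancer cell line, was treated with si-NC, a control siRNA, or with si-FTO against the m6A demethylase FTO, and the comparison asks how FTO knockdown altered m6A. Each group had 3 IP and 3 input libraries, and 1 peak list per IP library was analysed. The labels call the siRNA of all si-NC libraries si-NC1 and do not identify the FTO siRNA behind a given si-FTO library. Whether the libraries are separate cultures is also not stated, so SDs may measure technical spread. No clock time of harvest or synchronisation of the cells is given there either. The lists hold peaks and not transcript levels, so the fall in FTO, the thyroid origin of the cells and the mRNA level of each clock gene were not checked here.

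The clock runs as a feedback loop of transcription. ARNTL (also called BMAL1) pairs with CLOCK or its relative NPAS2, binds E-box DNA and switches on the period and cryptochrome genes, whose proteins return to the nucleus and block the activators. NR1D2 and BHLHE40 form further repressor loops, and in cultured cells blocking mRNA methylation is known to lengthen the circadian period.

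To show the DNA element at which this loop closes, promoter windows of the members were searched for the E-box CACGTG, which reads the same on both strands. All 10 members matched RefSeq, ARNTL under the symbol BMAL1, with 15 windows of 300 bases. The motif was in 3 of these windows (20.0%), against 2548 of 35116 windows in all (7.26%). These were windows of BHLHE40, NR1D2 and PER1, and no window of any other member held it. Only this sequence was searched, so E-boxes of another sequence or outside the windows were not covered. The stretches below are read 5′ to 3′ on the plus strand for BHLHE40 and NR1D2 and on the minus strand for PER1, with the E-box in capitals. They come from RefSeq on GRCh38.p14, lie at chr3:4979187-4979209, chr3:23945954-23945983, chr3:23946004-23946033 and chr17:8152560-8152589 in the order shown, and are promoter DNA on which no peak value bears.
BHLHE40: tccaaCACGTGagactcatgtga
NR1D2, upstream E-box: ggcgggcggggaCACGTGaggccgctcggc
NR1D2, downstream E-box: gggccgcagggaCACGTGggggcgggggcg
PER1: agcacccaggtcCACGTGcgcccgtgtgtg

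The lists held 8429, 8458 and 8999 peaks in si-NC 1 to 3 and 7921, 8454 and 8240 in si-FTO 1 to 3. Each peak has a fold enrichment of IP over input, a score (−10 times the log10 of the caller's p-value) and an FDR in percent. The lowest score listed was 50. Between 968 and 1031 peaks of each list share the score 3100, and 30 to 47 lie above it. The list of si-NC 2 had a median FDR of 99.6% and the other 5 lists had 41.1% to 50.4%, so a listed peak is the caller's call at its p-value and not a call at a low FDR. The median fold enrichment was between 6.89 and 7.15 in the 6 lists. Each fold enrichment belongs to its own IP and input pair, and whether the lists share a scale was not tested, so each was also given as a percentile, its rank within its own list. Read depth is unknown from these lists. A gene with no peak is one that was not listed, and its m6A was not shown to be absent.

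The clock genes had 7, 7 and 12 peaks in the control lists and 8, 9 and 8 peaks in the si-FTO lists, in order of replicate. The means were 8.67 ± 2.89 for si-NC and 8.33 ± 0.577 for si-FTO (SD, n = 3), and the groups overlapped. Members with a peak numbered 6, 5 and 8 in the control lists and 6, 6 and 6 after si-FTO. The list of si-NC 3 stood above the other 5 in both counts and was also the longest list.

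PER2, PER3, NR1D2 and BHLHE40 were in all 6 lists, or 4 of the 9 members with a peak, where 49.0% of all genes with a peak were. ARNTL was in 5 lists, PER1 in 4, NPAS2 in 2, and CLOCK and CRY2 in 1 each. No member had a peak in all 3 si-FTO lists and no si-NC list, a pattern held by 2.28% of genes, and none had the opposite pattern, held by 2.75%.

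**Figure D1:**
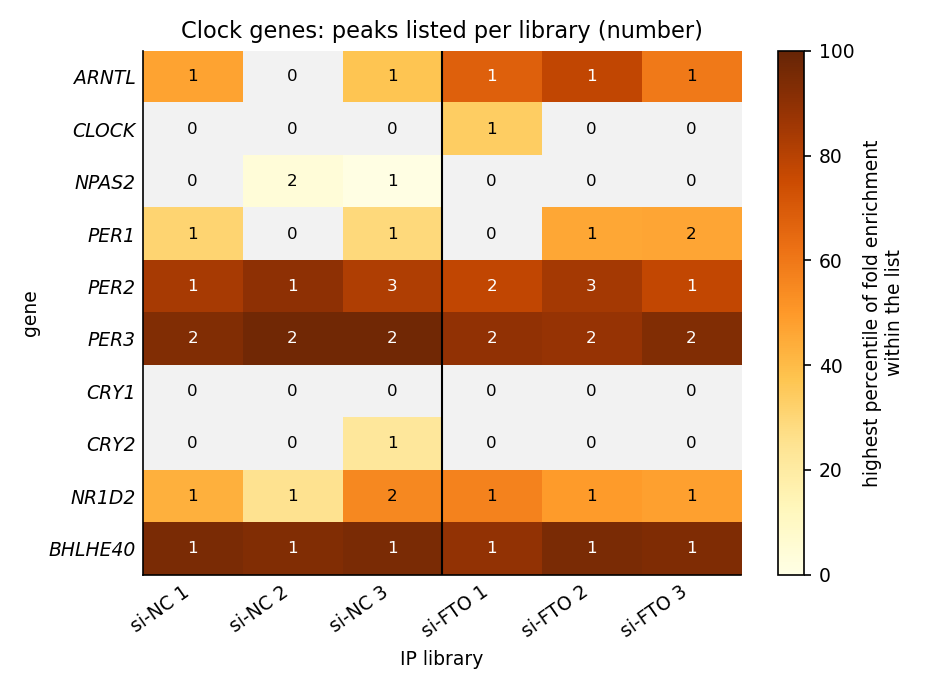
The 10 clock genes against the 6 IP libraries. Numbers are peaks per list, and the colour is the highest within-list percentile of fold enrichment (0 to 100), with grey for no peak; PER2, PER3, NR1D2 and BHLHE40 are coloured in all 6 columns, NPAS2 in si-NC 2 and si-NC 3, and CRY1 in none.

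Peaks that overlapped by at least 1 bp across lists were merged into sites, which gave 19 sites in the clock genes and 12995 in all. All positions of peaks are in hg19 and count from 1. Of the 19 sites, 5 were in all 6 lists (36.5% of all sites were), 1 was in every si-FTO list and no si-NC list (2.92%), and 0 were in every si-NC list and no si-FTO list (3.20%). A further 8 of the 19 were in 1 list, where 19.7% of all sites were. Of the 5 sites in all 6 lists, 4 had the same start and end in each list, as did 68.1% of such sites in all. The peak lists name a transcript for each peak but no exon, UTR or stop codon, so the place of a site within its transcript was not analysed here.

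The sites in all 6 lists and the sporadic ones differed in strength. The 30 peaks of the first kind, which are 5 sites counted once per list, had a median percentile of 82.7 (range 5.35 to 97.0). Their median score was 1131. The other 21 peaks, among them those of an ARNTL site listed in every si-FTO library, had a median percentile of 31.2 (range 0.533 to 83.3). Their median score was 117. The same order held over all genes, where peaks of sites in all 6 lists had a median percentile of 64.3 and the others 32.6, so it was not particular to the clock. Recurrence and strength are not independent in such lists, since a site near the lowest listed score of 50 can drop out of a list.

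Among the activators, ARNTL was listed at a different site in each group. The first, chr11:13378425-13378643 (219 bp, transcript ENST00000403482), was listed in si-FTO 1 to 3 with fold enrichments of 8.80, 10.27 and 7.89 and in no si-NC list. These ranked at percentiles 67.6, 77.4 and 59.6 of their lists, a mean of 68.2 ± 8.93 (SD, n = 3). The second, chr11:13393710-13393956 (247 bp, transcript NM_001297719), was listed in si-NC 1 and si-NC 3 with fold enrichments of 6.95 and 6.04, at percentiles 47.2 and 36.9. The 2 sites were 15066 bp apart. The si-FTO site had scores of 366.04, 279.19 and 119.89, and the si-NC site had 150.88 and 102.32. ARNTL was thus the member with a site listed in every si-FTO list and in no si-NC list, while as a gene it was listed in both groups.

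The partners of ARNTL were listed rarely and weakly. CLOCK, which carries the histone acetyltransferase activity of the pair, had 1 peak, chr4:56304449-56304704 (256 bp), in si-FTO 1 with a fold enrichment of 5.76 at percentile 33.9. NPAS2, which can stand in for CLOCK, was listed in si-NC 2 and si-NC 3 alone. Its site at chr2:101611862-101613287 had fold enrichments of 2.95 and 2.87, at percentiles 0.644 and 0.533, which were among the lowest of those lists. A second NPAS2 site, chr2:101436613-101436876, was in si-NC 2 with a fold enrichment of 3.68 at percentile 3.91 and a score of 51.42, close to the lowest score listed. NPAS2 had no peak in si-NC 1, so its absence from the si-FTO lists was shared by a control.

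Among the period genes, whose proteins carry the inhibitory signal of the loop, PER2 and PER3 were listed in every library and PER1 was not. PER1 was listed at different places in the groups. The site chr17:8043788-8044658 (871 bp) was in si-NC 1 and si-NC 3 with fold enrichments of 5.74 and 5.54, at percentiles 31.0 and 29.1. The si-FTO peaks lay at higher coordinates, 1925 bp beyond it. In si-FTO 3 there was 1 at chr17:8046584-8047194 (611 bp, fold enrichment 6.62, percentile 46.2). Beyond it, chr17:8047373-8048311 was listed in si-FTO 2 (939 bp, 6.60, percentile 46.0) and, as a shorter peak of 437 bp, in si-FTO 3 (3.99, percentile 7.97). Neither si-NC 2 nor si-FTO 1 listed PER1, so no PER1 site separated the groups.

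PER2, whose product is the period protein best known for binding the cryptochromes, had a steady site and 4 sporadic ones. The steady site, chr2:239161553-239162343 (791 bp, transcript NM_022817), had fold enrichments of 12.12, 14.97 and 11.17 in si-NC 1 to 3 and 10.50, 12.19 and 10.44 in si-FTO 1 to 3. Its percentiles were 83.8, 90.2 and 81.7 under si-NC and 77.5, 84.7 and 77.1 in si-FTO. The means were 85.2 ± 4.43 and 79.8 ± 4.29 (SD, n = 3), and the groups overlapped. The strongest of the sporadic peaks was chr2:239164298-239164552 (255 bp) in si-FTO 2, with a fold enrichment of 11.72 at percentile 83.3 and a score of 583.79. Other peaks were at chr2:239154304-239155165 in si-FTO 1, chr2:239179953-239180154 in si-NC 3, and chr2:239186348-239186596 in si-FTO 2 and si-NC 3. Those 4 peaks ranked between percentiles 22.2 and 38.6. PER2 peaks summed to 791, 791 and 1242 bp under si-NC and 1653, 1295 and 791 bp in si-FTO, again with overlap.

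PER3, the period gene with the most modest role in clock speed in mice, had 2 sites in all 6 lists, which lay 2018 bp apart. The stronger, chr1:7887178-7887875 (698 bp, transcript NM_016831), had fold enrichments of 16.95, 23.65 and 22.16 under si-NC and 14.61, 13.68 and 17.75 in si-FTO. Its percentiles were 93.1, 97.0 and 97.0 under si-NC (95.7 ± 2.23) and 89.3, 88.1 and 93.3 in si-FTO (90.2 ± 2.74; SD, n = 3). The highest si-FTO library passed the lowest si-NC library, so the groups overlapped. The weaker site, chr1:7889894-7890221 (328 bp, transcript NM_001289862), had fold enrichments of 6.55, 6.36 and 5.63 under si-NC and 4.70, 4.52 and 3.71 in si-FTO. Its percentiles were 42.1, 39.9 and 30.4 under si-NC (37.5 ± 6.18) and 17.3, 14.8 and 5.35 in si-FTO (12.5 ± 6.30). Every si-FTO library lay below every si-NC library, by 25.0 percentile points on average. Its scores were 138.14, 132.96 and 59.75 under si-NC and 51.74, 88.0 and 64.44 in si-FTO, and on that measure the groups overlapped.

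**Figure D2:**
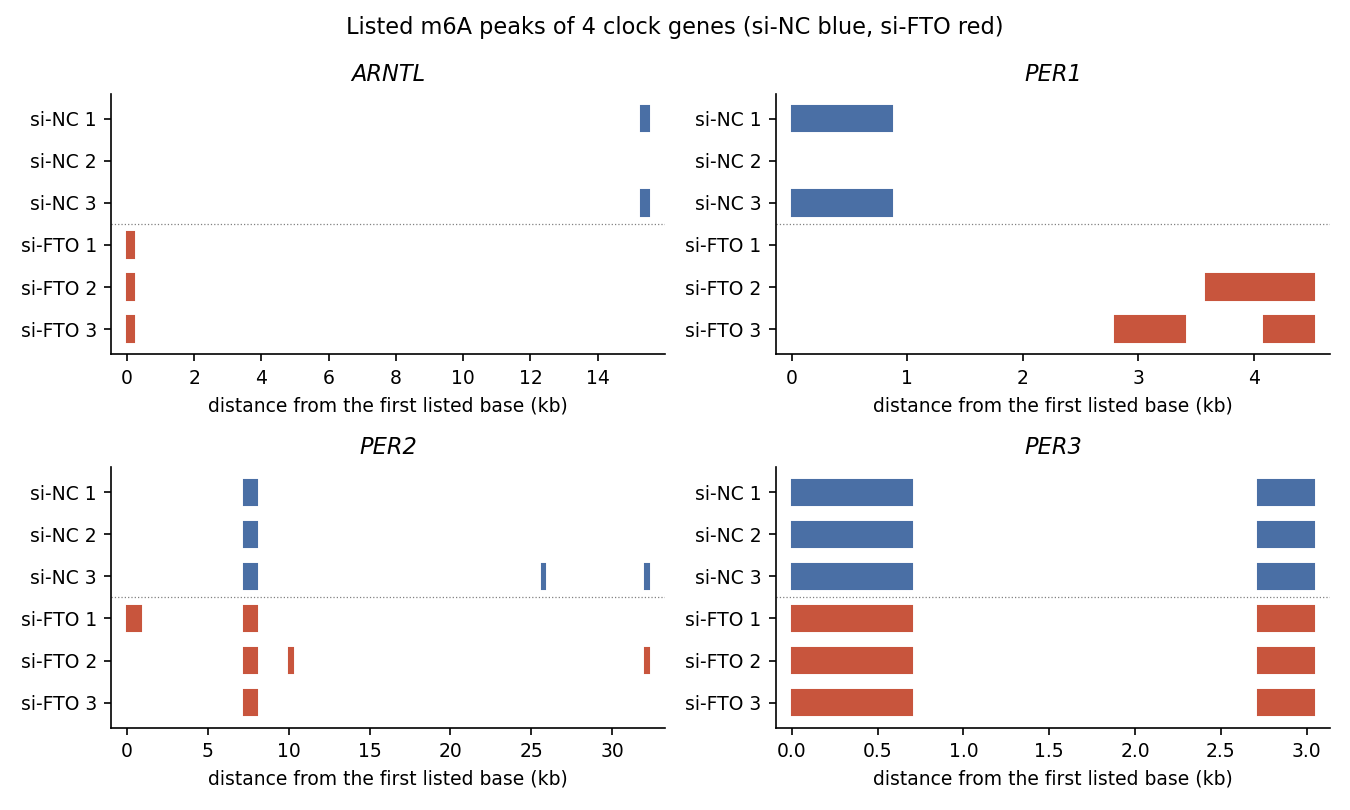
Peaks of ARNTL, PER1, PER2 and PER3 in each IP library, as bars drawn to scale along the distance in kb from the first listed base of the gene (si-NC blue, si-FTO red). The ARNTL bars of the groups are at opposite ends, 15066 bp apart, the PER1 bars of the groups do not meet, and the PER2 site of 791 bp and both PER3 sites recur in all 6 rows.

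The cryptochromes, the other arm of repression, were nearly without peaks. CRY1 was in no list. CRY2 had 1 peak, chr11:45903383-45904787 (1405 bp), in si-NC 3 with a fold enrichment of 5.10 at percentile 21.9 and a score of 55.03, near the lowest listed. That list was the longest.

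NR1D2, the nuclear receptor REV-ERBβ that represses ARNTL, had a steady site at chr3:24003468-24004096 (629 bp, transcript NM_001145425). Fold enrichments there were 6.62, 5.35 and 7.40 under si-NC and 7.50, 6.85 and 6.77 in si-FTO. The percentiles were 43.1, 25.0 and 54.9 under si-NC (41.0 ± 15.1) and 56.9, 49.5 and 47.8 in si-FTO (51.4 ± 4.81; SD, n = 3). The groups overlapped, and si-NC 2 was the lowest library. The scores were between 690.73 and 2187.29, so this middling enrichment came with high scores. Their means were 1701 ± 563 under si-NC and 991 ± 463 in si-FTO, with overlap. The mean score was thus lower in si-FTO, where the mean percentile was higher. A further peak, chr3:23986751-23987085, was in si-NC 3 at percentile 19.3.

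BHLHE40 (DEC1), a bHLH protein that competes at E-boxes with the ARNTL pair, carried a long and strong peak in every library. All 6 peaks started at chr3:5024521 (transcript NM_003670) and shared the score 3100. Fold enrichments were 18.44, 17.42 and 17.99 under si-NC and 14.43, 18.68 and 17.86 in si-FTO, at percentiles between 89.0 and 94.7, with overlap between groups. The length differed: 2112, 2095 and 2046 bp under si-NC and 2324, 2345 and 2216 bp in si-FTO. The means were 2084 ± 34.3 bp and 2295 ± 69.2 bp (SD, n = 3). Every si-FTO peak was longer than every si-NC peak, by 211 bp on average, and the difference lay entirely at the higher-coordinate end. The fold enrichment of the same peaks did not separate the groups.

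**Figure D3:**
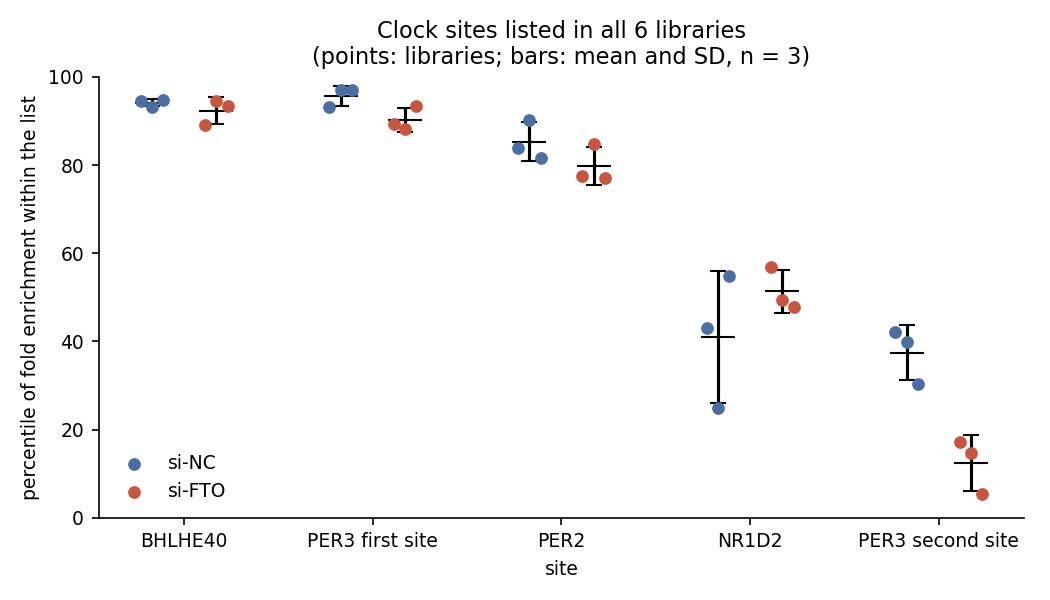
Within-list percentile of fold enrichment at the 5 clock sites found in all 6 lists, with each library as a point and the group mean with its SD (n = 3). The weaker PER3 site (labelled PER3 second site), at 30.4 to 42.1 under si-NC and 5.35 to 17.3 in si-FTO, is the one where the groups do not overlap.

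Of the 5 sites in all 6 lists, 1 (the weaker PER3 site) had every si-FTO percentile below every si-NC percentile, against 14.6% of such sites in all, and 0 had the reverse, against 16.9%. The median difference of si-FTO from si-NC over all such sites was 0.0806 percentile points. By the highest percentile of a gene, 0 of the 4 members in all 6 lists separated the groups in either direction, while 14.2% of genes were higher and 16.2% lower in every si-FTO list. By summed peak length, 1 of 4 (BHLHE40) was longer in every si-FTO list, against 10.6% of genes, and 0 were shorter, against 5.04%. With so few sites, these counts say no more than that such separations also occurred elsewhere in the lists.

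To place the members among the rest of the clock, 36 other genes of 9 roles were described in the same lists. Of these, 25 had a peak and 11 were in no list. Of the 25, 15 were in all 6 lists (49.0% of all genes with a peak were). Another 3 were in the 3 si-FTO lists alone (2.28%) and 0 in the 3 si-NC lists alone (2.75%). NOCT, listed as NOCT and as CCRN4L, was counted as 1 gene in all 6 lists, whereas the shares count each name. By name, NOCT was not in si-FTO 1, and CCRN4L was in si-FTO 1 to 3 alone. Among the unlisted genes were NR1D1, the closest relative of NR1D2, and DBP, a textbook target of the ARNTL pair. The 59 sites of these genes included 24 in all 6 lists (36.5% of all sites), 5 in every si-FTO list and no si-NC list (2.92%), and 0 of the opposite kind (3.20%). Presence in these lists had been seen when the wider list was chosen, so the counts are a description.

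**Figure D4:**
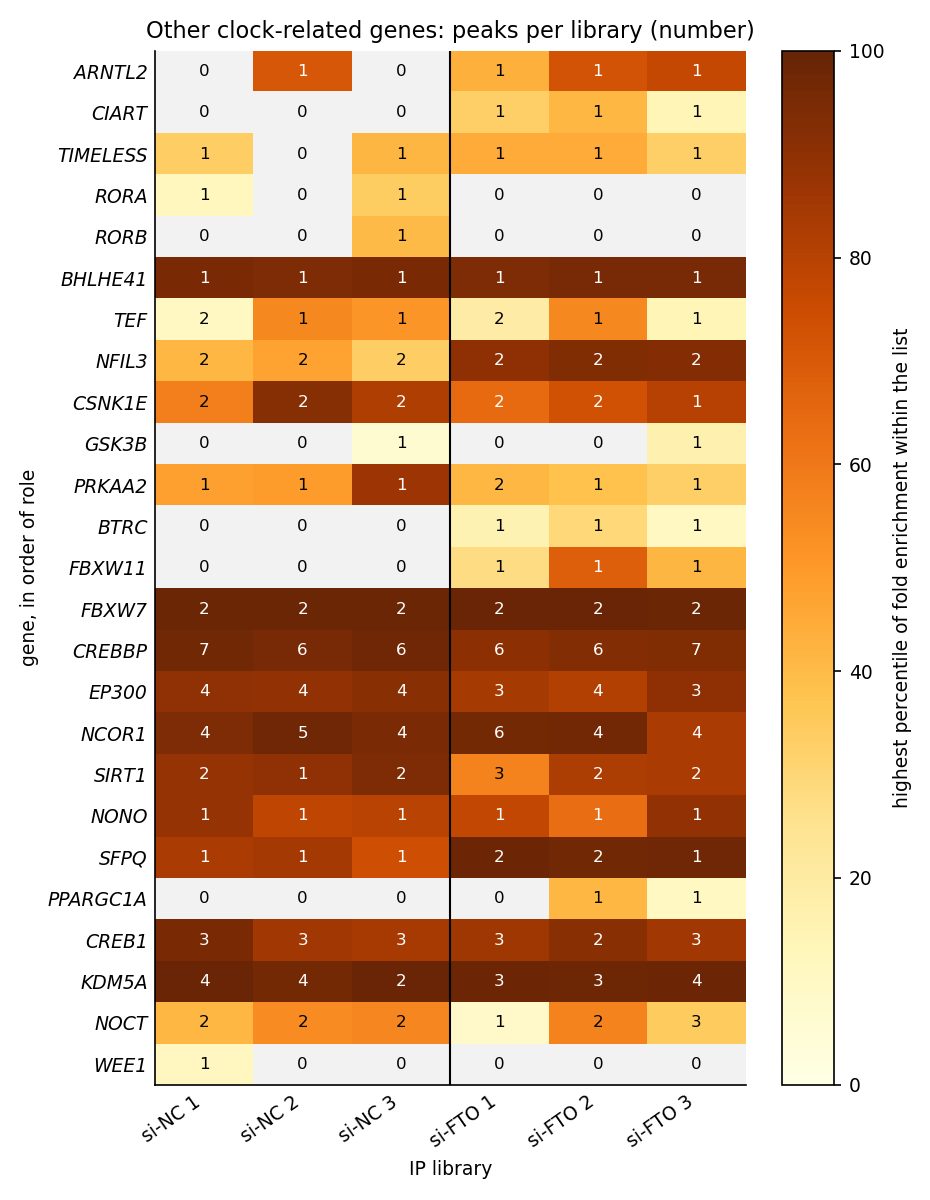
The 25 further clock-related genes with a peak, in order of role, against the 6 IP libraries. Numbers are peaks per list, and the colour is the highest within-list percentile of fold enrichment (0 to 100), with grey for no peak. CIART, BTRC and FBXW11 have peaks in every si-FTO column and no si-NC column, and PPARGC1A has them in si-FTO 2 and si-FTO 3 alone.

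The 3 genes listed in every si-FTO list and no si-NC list were CIART, BTRC and FBXW11. CIART, a repressor of the ARNTL pair, had percentiles of 33.2, 41.1 and 13.9 in si-FTO 1 to 3. BTRC and FBXW11 encode the paralogous F-box proteins that mark phosphorylated period proteins for destruction. BTRC, at chr10:103312912, ranked at 15.6, 29.4 and 10.4 with scores of 60.35, 67.75 and 51.04. FBXW11, at chr5:171433462, ranked at 27.4, 68.2 and 41.5 with scores of 89.4, 54.0 and 89.72. Apart from CIART in si-FTO 2, with 189.35, the scores of these 3 genes lay between 51.04 and 91.8, not far above the lowest of 50, and a peak just under it would not have been listed. The remaining si-FTO sites of this kind were in CREBBP, a coactivator, and NOCT, a rhythmic gene listed under 2 names (CCRN4L and NOCT), both of which were listed elsewhere in si-NC.

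Other relatives of the members were listed less regularly. ARNTL2, the paralog of ARNTL, had a site at chr12:27485787-27486069 in si-FTO 1 to 3 at percentiles 43.3, 72.5 and 76.9, and in si-NC 2 at 71.0. TIMELESS was in every list but that of si-NC 2. The nuclear receptors RORA and RORB, which activate ARNTL, were in si-NC 1 and si-NC 3, and in si-NC 3, respectively. WEE1, a cell cycle kinase under clock control, was in si-NC 1 alone, and GSK3B, a kinase of clock proteins, in si-NC 3 and si-FTO 3. The cofactor PPARGC1A was in si-FTO 2 and si-FTO 3 alone, at percentiles 41.1 and 10.9.

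BHLHE41 (DEC2), the paralog of BHLHE40, had the same form of peak. It was in all 6 lists with the score 3100 and percentiles between 93.9 and 95.4, and its higher-coordinate end was fixed at chr12:26276101. Its length was 2990, 2973 and 2563 bp under si-NC (2842 ± 242 bp) and 3137, 3143 and 3143 bp in si-FTO (3141 ± 3.46 bp; SD, n = 3). Every si-FTO peak was the longer, as in BHLHE40. Of the 14 further genes listed under 1 name in all 6 lists, BHLHE41 was the 1 whose summed length separated the groups in this direction, and 0 did in the other, against 10.6% and 5.04% of all genes. A count of 1 is thus near the background. This paralog was singled out after its values were seen.

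**Figure D5:**
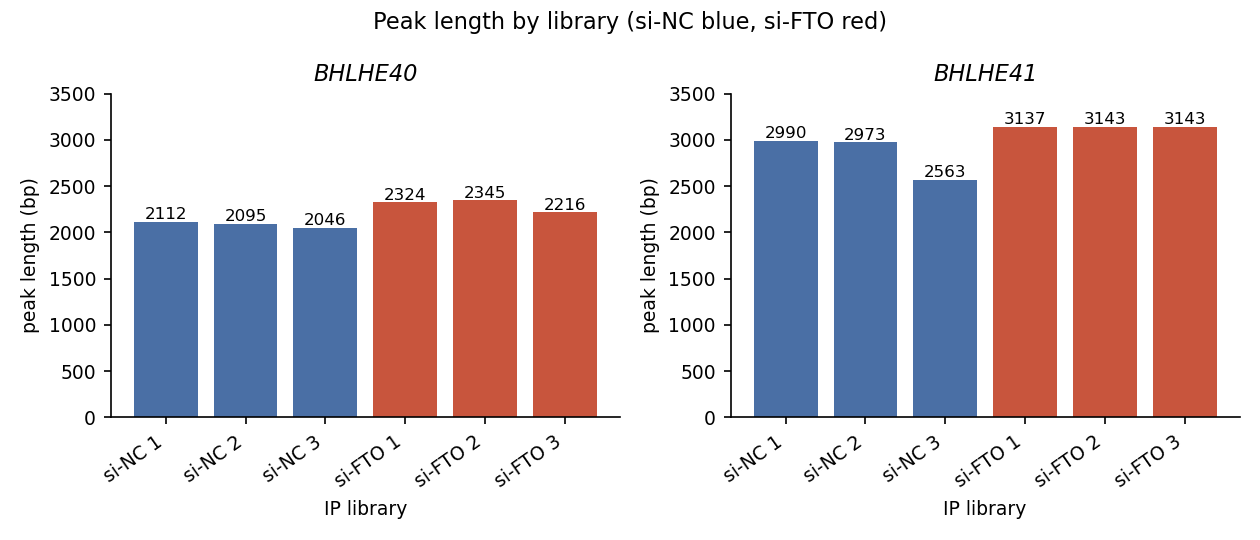
Peak length in bp of BHLHE40 (left) and BHLHE41 (right) in each IP library, with axes from 0. Every si-FTO bar is taller than every si-NC bar in both genes, and the si-NC 3 bar of BHLHE41 (2563 bp) is the shortest of that gene.

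NFIL3, a repressor that opposes the PAR bZIP factors such as DBP at their shared sites, showed the widest separation among the 24 further sites, and its site was also singled out after values were seen. At chr9:94185922-94186144 (223 bp) the fold enrichments were 6.49, 6.86 and 5.42 under si-NC and 14.96, 16.95 and 16.86 in si-FTO. The percentiles were 41.2, 46.9 and 26.9 under si-NC (38.3 ± 10.3) and 89.9, 93.3 and 92.5 in si-FTO (91.9 ± 1.82; SD, n = 3). The scores were 148.81, 153.74 and 105.93 against 468.57, 617.11 and 524.48, so the values of the groups did not overlap on any of the 3 measures. The other NFIL3 site, chr9:94171327-94173188 (1862 bp), ranked between 15.3 and 33.5 under si-NC and 28.5 and 56.8 in si-FTO, with overlap.

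Of those 24 sites, 4 had every si-FTO percentile above every si-NC percentile (NFIL3, CREB1, NCOR1 and KDM5A) and 5 had the reverse. The shares over all sites in all 6 lists were the 16.9% and 14.6% given above. PRKAA2, a catalytic subunit of AMPK, which phosphorylates cryptochromes, was among the 5, with percentiles of 47.8, 49.2 and 86.5 in si-NC 1 to 3 and 41.4, 38.0 and 32.9 in si-FTO 1 to 3. The others were 2 sites of CREBBP and 1 each of EP300 and SIRT1, all coregulators. Among the highest ranks of the wider list was FBXW7, an F-box protein that targets REV-ERBα, with a site at chr4:153332312-153333024 between percentiles 98.5 and 99.2 and overlap between groups. CSNK1E, a period kinase, and TEF, a PAR bZIP factor, were in all 6 lists as genes. The cofactors KDM5A, SFPQ and NONO had median percentiles of 85.5, 84.7 and 78.7 over their peaks and were also in all 6 lists as genes. CSNK1E and NONO had 0 sites in all 6 lists. The NONO site at chrX:70503042 was in si-NC 1 to 3 and si-FTO 1, and another at chrX:70503611 was in si-FTO 2 and si-FTO 3.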

How the data were processed

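K1 cells received si-NC or si-FTO, and the 6 IP libraries (3 per group) had a peak list each. CASAVA 1.8, BWA and hg19 appear in the submitters' processing notes, and MACS is named in the peak identifiers. The settings of MACS were not given in the sources used here. The authors deposited, per peak, a score (−10 times the log10 p-value), a fold enrichment ratio of IP over input, and an FDR in percent. Each list held 1 emptied line, which was not analysed. Peaks were assigned by deposited gene name, merged into sites across lists at an overlap of at least 1 bp, and ranked by fold enrichment within each list (average ranks). Python 3.11.15, pandas 2.3.3 and numpy 2.4.6 were used, and the counting was tested on simulated data. Members and lists were chosen with earlier results of these data known. All 10 members were named. Of the wider list, the genes named were those in a count of 5 or fewer and, per role, up to 3 with the highest median percentile. A gene of that list is not reported here and was left out of its counts. Site percentiles and identical intervals were compared after values had been seen. No test was run, and 3 against 3 libraries allow no exact two-sided p under 0.1. Alternatives left out each library, kept the upper 75% of fold enrichments, equalised list lengths at 7921 peaks, required 50% reciprocal overlap, and used any listed gene name.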

Additional observations from a re-analysis of the deposited data

How the results depend on the processing

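Over the alternatives, 84 of 94 values stayed within 1.5 times the main count or, for means and medians, within 1 SD between lists, and 10 moved. These limits are wide: 5 in place of 4 members in all 6 lists, without si-NC replicate 2, and a median percentile of 56.9 in place of 47.8, without si-NC replicate 3, both lie within them. Equal list length, 50% overlap and any listed gene name moved none by these limits. With lists of equal length, however, the mean number of member peaks was 7.67 per si-NC list and 8.33 per si-FTO list. The full lists gave 8.67 and 8.33, so the order of the group means was reversed. That order was also reversed without si-NC replicate 3, the longest list. Leaving out each library in turn gave 0 to 1 members listed throughout si-NC and never in si-FTO (1 without si-NC replicate 1, which is NPAS2). The corresponding range for sites was 0 to 2, against 0 in the full set, with 1 without si-NC replicate 1 and 2 without si-NC replicate 2 (the ARNTL and PER1 si-NC sites). Sites listed throughout si-FTO and never in si-NC ranged from 1 to 2, with 2 without si-FTO replicate 1 (ARNTL and a PER1 site). The median peak length of members ranged from 629 to 698 bp (664 without si-FTO replicate 2, 698 without si-FTO replicate 3). Keeping the upper 75% of fold enrichments gave 1 site of the si-NC kind (the weaker PER3 site, whose si-FTO peaks fell below the kept range), a mean of 6.33 member peaks per si-FTO list, a median length of 698 bp and a median percentile of 72.4, the last partly by construction. No paired analysis was possible because nothing in the labels links libraries of the same number, and no test was run. Read depth is unknown, so an unlisted peak cannot be told from one too thinly sequenced.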
